A study of Mus musculus with 9 samples.

Results

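The 9 genes described here are T (Brachyury), Lef1, Tcf7, Axin2, Cdx1, Sp5, Nkd1, Notum and Ccnd1, which are transcribed in response to Wnt signals. They were chosen by symbol from a table of 16636 genes, all 9 are listed there, and all 9 passed the filter on low counts that left 14246 genes for testing. The list was selected on knowledge of the log2 fold changes and CPM of T and Lef1 between these groups, so differences of the 9 genes between groups are given as descriptions, without p-values. RNA was sequenced from E14 cells, a wild-type line of mouse embryonic stem cells. All cells were grown on fibronectin in 2i/LIF medium, which holds the GSK3 inhibitor CHIR99021 at 3 µM, the MEK inhibitor PD0325901 at 1 µM and LIF at 1000 U/ml. There are 3 libraries of untreated cells, 3 of cells given a control siRNA against luciferase (siLuc) and 3 of cells given siRNA against Stag3 (siStag3), a cohesin subunit. The siRNA groups were transfected with 50 pmol of siRNA in a lipid reagent at seeding and again the next day, over 48 hours in all. Untreated cells had no siRNA, so the siRNA and the transfection procedure cannot be told apart in a comparison with them.

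In the canonical Wnt pathway, a ligand bound to Frizzled and LRP receptors stops a complex of Axin, APC and the kinase GSK3 from marking β-catenin for destruction. β-catenin then enters the nucleus and binds proteins of the TCF and LEF family at target genes. CHIR99021 blocks GSK3 directly, so that β-catenin is held up without a ligand, and in naive stem cells this supports self-renewal by relieving repression by Tcf7l1. Several targets act back on the pathway: Axin2 belongs to the destruction complex, Nkd1 binds Dishevelled, and Notum is an enzyme that inactivates Wnt ligands outside the cell. Lef1 and Tcf7 are themselves TCF and LEF factors. Sp5, Cdx1 and T are transcription factors of the early embryo, T being the defining factor of the primitive streak and early mesoderm, and Ccnd1 encodes cyclin D1.

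TCF and LEF proteins bind DNA around the letters CTTTGA or CTTTGT, so the 250 bases before the RefSeq starts (GRCm38.p6) of the 9 genes were searched for both, on both strands. The motifs differ in their last letter. Of the 9 genes, 6 have an entry in the table of starts (T, Lef1, Tcf7, Axin2, Sp5 and Nkd1), and Cdx1, Notum and Ccnd1 do not. CTTTGA occurs in 13.8% of all 32851 windows of this length and CTTTGT in 16.5%. Sp5 has 2 copies of CTTTGA, 204 and 104 bases before its start, which 1.37% of windows reach or exceed, and 2 copies of CTTTGT. T has 1 copy of CTTTGA on the opposite strand, 234 bases before its start. Axin2, Tcf7, Nkd1 and the first 3 starts of Lef1 have neither motif in this window, and the innermost Lef1 start has 2 copies of CTTTGA and 1 of CTTTGT. Sp5, T and Axin2 are printed as examples with 2, 1 and 0 copies of CTTTGA, in capitals on whichever strand it lies. No siStag3 library of theirs reached an untreated one, which also holds for Lef1, Cdx1 and Nkd1. Of all 14246 genes tested, 766 were lower in this way. The windows are chr2:70474673-70474922 for Sp5, chr17:8434173-8434422 for T and chr11:108920099-108920348 for Axin2, all on the plus strand. A match of letters is a description and not a binding site.
Sp5: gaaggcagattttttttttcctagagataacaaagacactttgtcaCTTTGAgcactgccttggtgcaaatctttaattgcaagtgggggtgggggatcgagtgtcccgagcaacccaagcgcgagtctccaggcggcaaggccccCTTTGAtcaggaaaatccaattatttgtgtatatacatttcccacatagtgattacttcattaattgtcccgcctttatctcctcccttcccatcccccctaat
T: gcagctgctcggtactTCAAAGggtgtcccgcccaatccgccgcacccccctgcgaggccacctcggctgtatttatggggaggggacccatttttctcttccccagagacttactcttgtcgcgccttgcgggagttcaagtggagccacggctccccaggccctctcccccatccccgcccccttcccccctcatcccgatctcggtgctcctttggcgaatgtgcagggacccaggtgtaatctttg
Axin2: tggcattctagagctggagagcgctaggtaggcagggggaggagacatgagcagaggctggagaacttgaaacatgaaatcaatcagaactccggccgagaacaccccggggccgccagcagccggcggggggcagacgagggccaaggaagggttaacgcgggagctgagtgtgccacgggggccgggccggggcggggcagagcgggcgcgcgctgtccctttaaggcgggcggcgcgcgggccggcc

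Depth was 29332436 to 44527534 counts per library. Column names tie each library to a set, 1 or 3, and to an experiment, with 2 Set 1 libraries and 1 Set 3 library in each group. What set and experiment stand for is not stated. Since 6076 of 14246 genes (42.7%) differed between the sets (edgeR), the set is a term of the test, and no gene of the 9 passed in any comparison of groups without it. In that fit 0% of all genes passed in siStag3 against siLuc, 0.00702% in siLuc and 0.014% in siStag3 against untreated cells. An unadjusted p under 0.05 was reached by 1, 5 and 6 of the 9, beside 2.15%, 8.56% and 5.95% of all genes. The 9 were chosen with these contrasts in view, so nothing is read from these counts. In Set 3 the siLuc library is of experiment 1 and the other 2 are of experiment 5. One siLuc library of Set 1 is also of experiment 1, and whether it shares a culture with the Set 3 library is not stated. Stag3 was at 25.7 ± 2.54 CPM in untreated, 24.2 ± 2.20 in siLuc and 14.8 ± 1.12 in siStag3 libraries (SD, n = 3), so that some of its RNA remained. CPM, relates a count to the total of its library and is here scaled by TMM factors. Naive stem cell markers summed to 4787 to 5223 CPM. Of these 10 genes, Dppa3 fell in siStag3 against untreated cells (-0.86, SE 0.102, edgeR adjusted p 0.000781). In siLuc against untreated cells Dppa3 was at -0.34 (edgeR adjusted p 0.0659, or 0.0429 with the GC correction). Between siStag3 and siLuc it was at -0.52 (edgeR adjusted p 0.168). Markers of primitive endoderm (1.85 to 3.81), trophectoderm (4.62 to 7.81) and neuroectoderm (3.22 to 4.997) were at most 7.81 CPM in sum. So were those of fibroblasts (0.628 to 1.57) and 2-cell-like cells (0.173 to 0.825). The neuroectoderm marker Pax6 rose in siLuc against untreated cells (0.59, SE 0.134, edgeR adjusted p 0.0316), from 2.39 ± 0.192 to 3.59 ± 0.271 CPM, with 3.11 ± 0.259 in siStag3 (SD, n = 3). Pax6 lost its call in 5 of 6 fits without 1 library (edgeR adjusted p up to 0.145), and its part in the results below was not tested. Of these markers, Neurog2, Dcn, Zfp352 and Tcstv3 are not listed in the table. In bulk RNA, fewer cells with a transcript and less of it per cell cannot be told apart.

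The levels of the 9 genes in untreated cells, compared per kilobase of the longest GENCODE M21 transcript, spanned from Ccnd1 to Nkd1. Ccnd1 was at 62.3 ± 5.09 CPM per kb, followed by Sp5 (38.1 ± 2.66), Tcf7 (34.7 ± 1.97), Notum (33.9 ± 9.82), Axin2 (24.1 ± 1.70), Cdx1 (9.55 ± 0.600), Lef1 (3.83 ± 0.134), T (2.35 ± 0.604) and Nkd1 (0.219 ± 0.0458; SD, n = 3). The ranges of Sp5 and Tcf7 overlapped, as did those of Tcf7 and Notum, and all other neighbours in this order were separate in the untreated libraries. T, the streak factor, was thus among the lowest of the 9, with 40 to 288 counts per library, and Nkd1 had 13 to 46. The median transcript length in place of the longest gave 97.8 CPM per kb for Axin2 and 131 for Ccnd1, and placed T (6.33) above Lef1 (4.96).

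**Figure D1:**
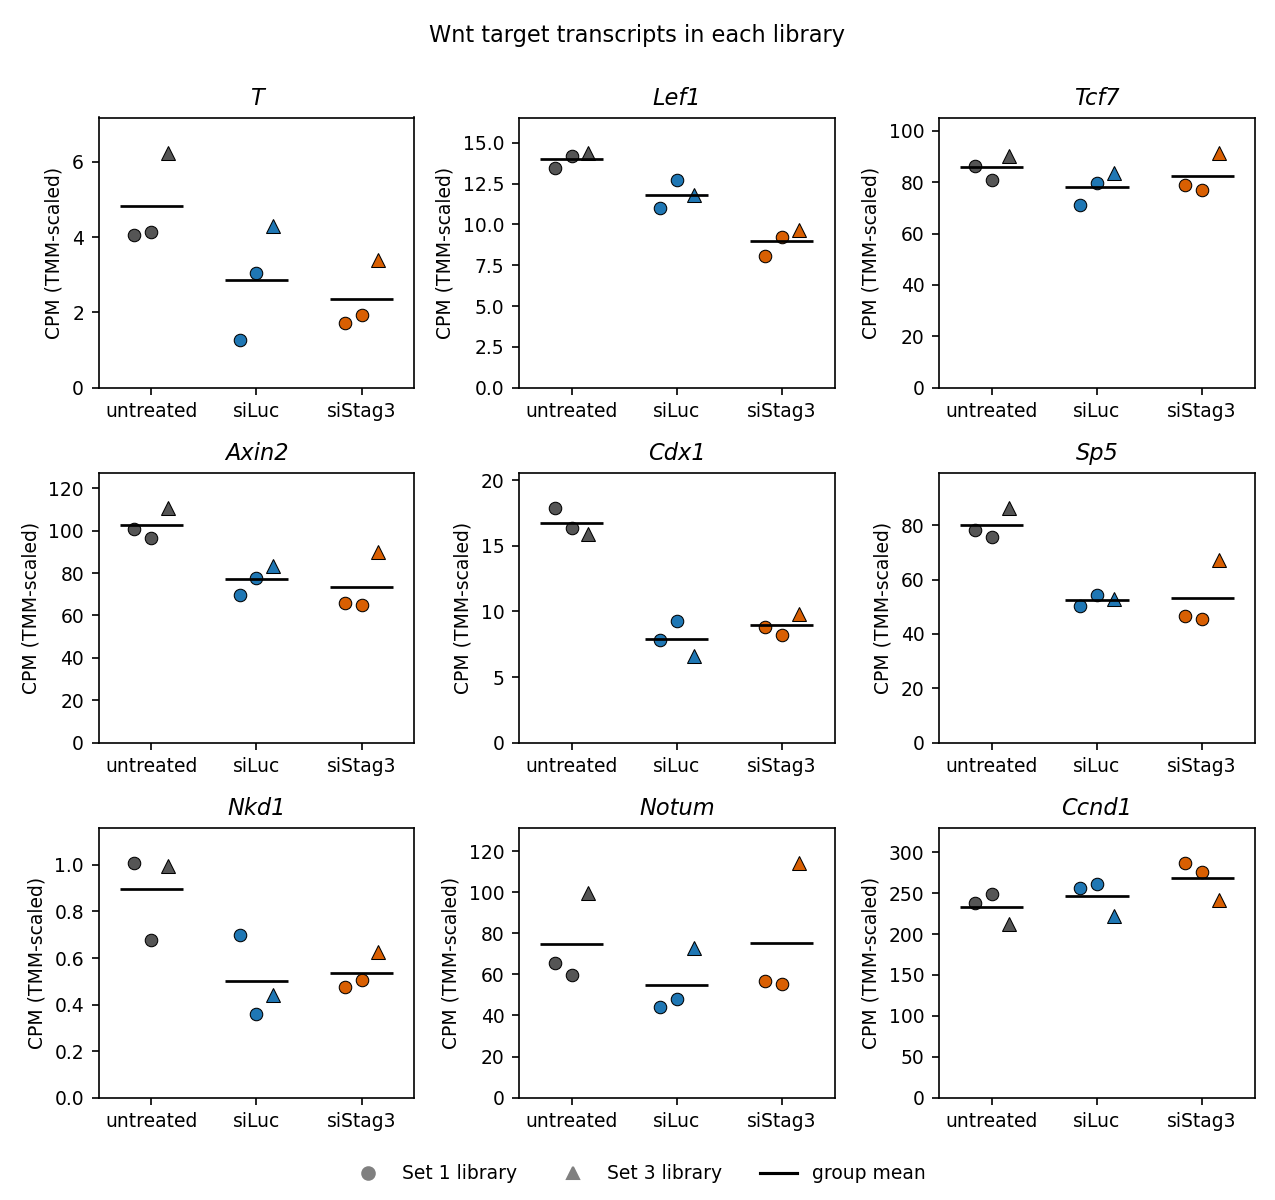
CPM (TMM-scaled) of each gene in each library, with 1 panel per gene and its own axis from 0. Circles are Set 1 libraries, triangles are Set 3 libraries and lines are group means (n = 3). Untreated libraries lie above all 6 transfected libraries for Lef1, Axin2, Cdx1 and Sp5, while Set 3 triangles lie high for T and Notum.

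The log2 fold changes of 8 of the 9 genes were below 0 in both transfected groups against untreated cells, Ccnd1 being the exception. Notum belongs to the 8 in siStag3 with -0.04 (SE 0.0802), and was at 0.005998 without the set term and 0.06 with the GC correction. Lef1, Axin2, Cdx1 and Sp5 had all 3 untreated libraries above all 6 transfected libraries, a pattern found in 2.59% of all genes tested. Within each set, T joined these 4 (10.6% of all genes), and Ccnd1 showed the opposite order, with untreated cells lowest (8.84%). The median log2 fold change of the 9 genes was -0.45 in siLuc and -0.61 in siStag3 against untreated cells, beside -0.00242 and -0.00561 for all genes. Both comparisons share the untreated libraries. In siLuc, 4 of the 9 passed the threshold as lower (Axin2, Cdx1, Sp5 and Notum), where 2.55% of all genes did, and none as higher (1.65%). In siStag3, 5 passed as lower (T, Lef1, Axin2, Cdx1 and Sp5), where 1.46% of all genes did, and none as higher (1.07%). Since these contrasts were in view when the genes were chosen, nothing is read from these counts.

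Cdx1, a homeobox gene of the posterior embryo, differed most in siLuc. It was at 17.9, 16.4 and 15.9 CPM in untreated, 7.80, 9.24 and 6.61 in siLuc and 8.79, 8.22 and 9.77 in siStag3 libraries (in each group the first 2 values are of Set 1 and the third is of Set 3). Every transfected library lay below 10 CPM and every untreated one above 15. The log2 fold change was -1.08 (SE 0.114) in siLuc and -0.90 (SE 0.113) in siStag3, which is 47.2% and 53.5% of the untreated level. Between siStag3 and siLuc it was 0.18 (SE 0.119), with 0.00226 in Set 1 and 0.56 in Set 3.

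Sp5, a zinc finger repressor and direct Wnt target, was at 78.1, 75.8 and 86.4 CPM in untreated, 50.4, 54.5 and 53.0 in siLuc and 46.7, 45.5 and 67.3 in siStag3 libraries. The untreated libraries were the 3 highest, and the Set 3 siStag3 library lay between them and the rest. The log2 fold changes of Sp5 were -0.60 (SE 0.0903) in siLuc and -0.61 (SE 0.0904) in siStag3. Axin2, the feedback inhibitor most often used as a readout of the pathway, was at 101, 96.7 and 111 CPM in untreated cells. It was at 69.7, 77.8 and 83.4 in siLuc and 65.8, 64.8 and 89.8 in siStag3. Its 2 Set 1 siStag3 libraries were the lowest of the 9 and its Set 3 siStag3 library was the highest of the transfected ones. The log2 fold changes of Axin2 were -0.42 (SE 0.0717) and -0.50 (SE 0.0719). Against siLuc, siStag3 differed by -0.08 for Axin2 (SE 0.0722) and by -0.00577 for Sp5 (SE 0.0913). Both went lower in Set 1 (-0.17 and -0.19) and higher in Set 3 (0.11 and 0.34), and the value of Sp5 turned to 0.00206 under scaling by total counts alone.

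Across all libraries Lef1 was the only one of the 9 with 3 separate levels, while Ccnd1 had 3 separate levels within each set. Lef1 was at 13.5, 14.2 and 14.4 CPM in untreated, 11.0, 12.7 and 11.8 in siLuc and 8.03, 9.23 and 9.63 in siStag3 libraries. No siLuc library overlapped with an untreated one (10.3% of all genes were lower in this way) and no siStag3 library with a siLuc one (3.41%). The log2 fold change was -0.24 (SE 0.0910) for siLuc against untreated, -0.65 (SE 0.0931) for siStag3 against untreated and -0.40 (SE 0.0945) for siStag3 against siLuc. The difference of siStag3 from siLuc was -0.45 in Set 1 and -0.29 in Set 3. Tcf7, its paralog, was at 86.4, 80.7 and 90.4 CPM in untreated, 71.2, 79.5 and 83.6 in siLuc and 79.0, 77.1 and 91.5 in siStag3 libraries. The 3 groups overlapped, and the log2 fold changes against untreated cells were -0.14 (SE 0.0611) in siLuc and -0.06 (SE 0.0611) in siStag3.

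T had the largest SE of those of the 9 genes that passed the threshold. T was at 4.07, 4.14 and 6.24 CPM in untreated, 1.27, 3.03 and 4.28 in siLuc and 1.71, 1.92 and 3.40 in siStag3 libraries. The Set 3 library was the highest of each group, and the Set 3 siLuc library lay above 2 untreated ones. Within each set, all transfected libraries lay below the untreated ones. The log2 fold changes were -0.77 (SE 0.219) in siLuc and -1.06 (SE 0.226) in siStag3, and -0.29 (SE 0.239) between siStag3 and siLuc. The 1.27 CPM of the siLuc library of Set 1, experiment 1, rest on 40 counts. Without that library, siLuc against untreated was at -0.50 and siStag3 against siLuc at -0.56. In siStag3 against untreated cells T lost its call in 5 of the 6 fits that left out 1 library, which ranged from -1.18 to -0.999. The exception was the fit without the Set 3 siStag3 library.

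The 3 remaining genes did not follow one pattern. Notum was at 65.5, 59.5 and 99.8 CPM in untreated, 44.1, 47.9 and 72.8 in siLuc and 56.5, 55.3 and 114 in siStag3 libraries. Within each set siLuc was lowest and siStag3 lay above it, an order of siStag3 over siLuc that 9.37% of all genes had. The log2 fold change of Notum was -0.45 (SE 0.0808) in siLuc against untreated, -0.04 (SE 0.0802) in siStag3 against untreated and 0.41 (SE 0.0811) in siStag3 against siLuc. Ccnd1 was at 238, 249 and 212 CPM in untreated, 257, 261 and 222 in siLuc and 287, 276 and 242 in siStag3 libraries. In each set it was lowest in untreated cells and highest in siStag3. Of all genes tested, 8.84% had untreated libraries lowest within each set, and 9.37% had siStag3 above siLuc. The log2 fold changes of Ccnd1 were 0.08 (SE 0.0508) in siLuc and 0.20 (SE 0.0508) in siStag3 against untreated cells. Between siStag3 and siLuc the value was 0.12 (SE 0.0508). Ccnd1 overlaps LTO1 on the opposite strand, and the strand setting of the counting is unknown. LTO1 was at 8.68 ± 1.00 CPM in untreated cells (SD, n = 3). Nkd1, at 1.01, 0.679 and 0.997 CPM in untreated cells, was at 0.700, 0.359 and 0.441 in siLuc and 0.478, 0.504 and 0.627 in siStag3. Its fold changes had the largest errors, at -0.85 (SE 0.299) in siLuc and -0.75 (SE 0.295) in siStag3.

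**Figure D2:**
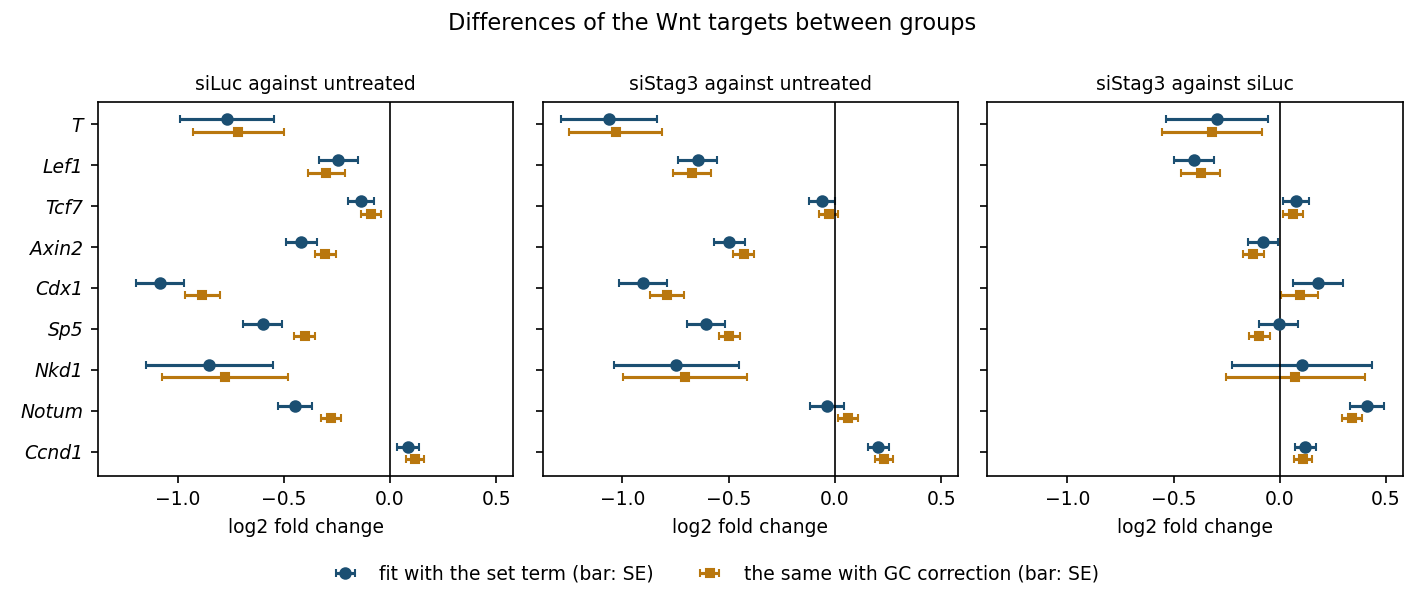
Log2 fold change of each gene (x axis) in 3 comparisons, with bars for the SE. Circles are from the fit with the set as a term and squares from the same fit with GC correction. T, Lef1, Axin2, Cdx1, Sp5 and Nkd1 lie below 0 in both comparisons with untreated cells, Ccnd1 lies above 0 in all 3 panels, and in siStag3 against siLuc Lef1 and Notum lie on opposite sides.

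Both siStag3 and siLuc cells were transfected, so their comparison sets the 2 siRNAs against each other. With edgeR, 0 of the 9 passed the threshold, beside 4 of 14246 genes (0.0281%, with 0.014% lower and 0.014% higher). An unadjusted p under 0.05 was reached by 3 of the 9 and by 1122 of all genes (7.88%). The 9 were chosen with differences between groups in view, so nothing is read from these counts. DESeq2 with the set term called 22 genes, 1 of them a member, Notum, which was higher. Log2 fold changes were below 0 for 4 members and above 0 for 5, with a median of 0.08. Lef1 (-0.40) and Notum (0.41) lay farthest apart. The GC correction also took Notum past the threshold (0.34, SE 0.0466), in a fit where 0.175% of all genes passed as higher.

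After the mean of its set was subtracted from each library, 8 of the 9 genes were above their own mean in each of the 3 untreated libraries, and the exception was Ccnd1 each time. In siLuc, 1, 4 and 1 genes were above their mean, and in siStag3, 3, 2 and 3. The siLuc library with 4 was that of Set 1, experiment 3. Ccnd1 was above its mean in all 3 siStag3 libraries, as was Notum, and Lef1, T, Axin2, Cdx1, Sp5 and Nkd1 were below theirs in all 3. Within a set, higher values in untreated libraries place the transfected ones lower on average, so the libraries do not count separately. These counts restate the contrasts in view when the genes were chosen. No share of all genes stands beside them, and nothing is read from them.

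**Figure D3:**
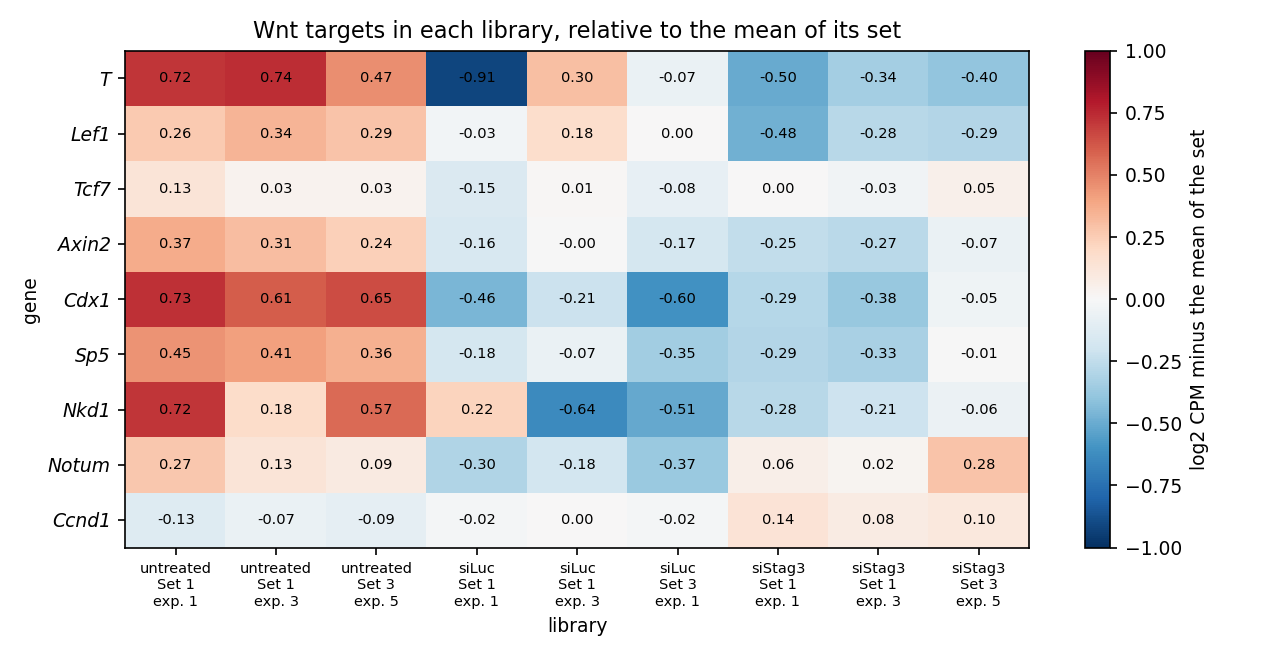
Log2 CPM of each gene (rows) in each library (columns) minus the mean of its set, in colour from -1 to 1 and as printed values. The 3 untreated columns are positive for every gene but Ccnd1. The row of Lef1 has its own lowest values in the siStag3 columns, and the siLuc column of Set 1, experiment 1, has T at -0.91.

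The differences of all genes followed GC content, and the 9 genes differ in it. Across 14226 genes, the Spearman correlation of log2 fold change with GC content of the transcript was -0.484 for siLuc against untreated, -0.311 for siStag3 against untreated and 0.373 for siStag3 against siLuc. Between Set 3 and Set 1 it was 0.471. Genes are not independent replicates, and these values describe the libraries. Cdx1 (62.1% GC) and Sp5 (62.0%) fall in the highest of 20 GC bins, whose median was -0.20 in siLuc and -0.10 in siStag3 against untreated cells. Lef1 (46.1% GC) lies in a bin with medians of 0.06 and 0.03, and T (52.2%) in one with -0.04 and -0.03. With the GC correction, siLuc against untreated was at -0.88 for Cdx1 (SE 0.0823), -0.40 for Sp5 (SE 0.0495), -0.30 for Axin2 (SE 0.0491), -0.30 for Lef1 (SE 0.0857), -0.28 for Notum (SE 0.0464) and -0.71 for T (SE 0.213). In siStag3 against untreated it was at -0.79, -0.50, -0.43, -0.67, 0.06 and -1.03 in the same order. Only Notum of these 6 changed direction, in siStag3 against untreated, where its value was near 0 in both fits.

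The genes were chosen on differences between groups and not between sets, so the set difference was tested. The CPM of T and Lef1 were known when the genes were chosen, so for them the test is not shown to be independent of the choice. Set 3 libraries were higher than Set 1 libraries for 5 of the 9 genes and lower for 1, where 21.4% and 21.2% of all genes were. Notum averaged 54.8 CPM in Set 1 and 95.6 in Set 3, a log2 difference of 0.79 (SE 0.0679, edgeR adjusted p 2.92e-06). T averaged 2.69 and 4.64 CPM, a difference of 0.81 (SE 0.188, edgeR adjusted p 0.00521). Axin2 (0.27, edgeR adjusted p 0.00368) and Tcf7 (0.16, adjusted p 0.0227) were higher in Set 3, Tcf7 losing its call without the Set 3 library of untreated or of siStag3 cells or the untreated library of Set 1, experiment 3 (adjusted p up to 0.100), and Ccnd1 was lower (-0.21, SE 0.0444, edgeR adjusted p 0.00188). Sp5 was higher by 0.25 (edgeR adjusted p 0.0216), but was at -0.0122 with the GC correction, which also took Axin2 to 0.11 (edgeR adjusted p 0.0366). Sp5 lost its call without either Set 3 library of experiment 5 or the siStag3 library of Set 1, experiment 1 (edgeR adjusted p up to 0.243). Lef1 (0.07), Cdx1 (-0.09) and Nkd1 (0.14) did not pass (edgeR adjusted p 0.519, 0.516 and 0.686). Of 11 MEK-ERK feedback and early genes, 6 were lower in Set 3 and 1 was higher, beside 21.2% and 21.4% of all genes. Egr1, a growth factor response factor of this list picked after its value was seen, was at -2.02 (SE 0.0866). Its Set 3 libraries were all below 45 CPM and its Set 1 libraries all above 90. No share of all genes stands beside this separation.

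The rest of the pathway was read from 7 lists by role, with 99 gene names, of which 89 genes are listed in the table and 72 were tested. In siLuc against untreated cells 3 of the 72 passed (4.17%, beside 4.2% of all genes), 1 higher and 2 lower. In siStag3 against untreated cells 5 passed (6.94%, beside 2.53%), 1 higher and 4 lower. These counts ranged from 0 to 3 higher and from 0 to 10 lower when 1 library was left out, with 0 and 0 without the siStag3 library of Set 1, experiment 1, and 3 and 10 without that of Set 3. In siLuc they ranged from 0 to 1 higher and from 1 to 3 lower. With only the 6 libraries compared, 2 were higher and 9 lower in siLuc, where 1801 of all genes passed. DESeq2 with the set term gave 2 higher and 8 lower (1337 of all genes), and the GC correction 3 and 4 (1016). Set 1 alone gave 1 and 1 (298). In siStag3 against siLuc none passed with edgeR, where an unadjusted p under 0.05 was reached by 9 of the 72 (12.5%, beside 7.88% of all genes), and DESeq2 with the set term also called 0. In the fit without the set none of the 72 passed in any comparison of groups, with 2, 9 and 10 at an unadjusted p under 0.05 in siStag3 against siLuc, siLuc against untreated and siStag3 against untreated (2.78%, 12.5% and 13.9%, beside 2.15%, 8.56% and 5.95% of all genes).

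Ligands and their secretion came first. Of 19 Wnt ligands 14 are listed and 7 were tested, and no ligand passed. The ligand with the smallest p, Wnt7b, was at 1.26 ± 0.0830 CPM in untreated, 0.942 ± 0.382 in siLuc and 0.601 ± 0.124 in siStag3 libraries (SD, n = 3), with -1.08 in siStag3 against untreated (SE 0.284, edgeR adjusted p 0.0662). Wnt7b passed as lower with the GC correction (edgeR adjusted p 0.0340), with the 6 libraries compared alone (0.0496) and in Set 1 alone (0.0414). Porcn, the enzyme that attaches a lipid to Wnt ligands, fell by 0.52 on the log2 scale in siLuc (SE 0.106, edgeR adjusted p 0.0215) and by 0.50 in siStag3 (adjusted p 0.0238). Porcn was at 7.85, 7.65 and 6.41 CPM in untreated, 6.01, 5.63 and 3.84 in siLuc and 5.45, 5.76 and 4.39 in siStag3 libraries. The untreated libraries overlapped with neither group. Of 14246 genes, 1465 were lower in this way in siLuc and 766 in siStag3. Porcn lost its call in 4 of 6 fits without 1 library for siLuc (edgeR adjusted p up to 0.122) and in 5 of 6 for siStag3 (up to 0.183). Wls, the carrier that takes Wnt ligands to the surface, fell by 0.56 in siStag3 (SE 0.105, edgeR adjusted p 0.0117), from 7.31 ± 1.12 to 4.94 ± 0.820 CPM (SD, n = 3). Wls lost its call without the siStag3 library of Set 1, experiment 1, or the Set 3 untreated library (edgeR adjusted p up to 0.0952). In siLuc Wls was at -0.32 (edgeR adjusted p 0.0762), and passed as lower with the GC correction (-0.49, edgeR adjusted p 0.00505). The R-spondins Rspo1, Rspo2 and Rspo3 had at most 14 counts in a library and were not tested.

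Of 14 receptor genes tested, 1 passed. Lgr4, an R-spondin receptor, rose in siLuc by 0.37 (SE 0.0709, edgeR adjusted p 0.0143), from 68.6 ± 8.27 to 88.4 ± 4.10 CPM (SD, n = 3). Lgr4 lost its call without either Set 3 library or the untreated library of Set 1, experiment 1 (edgeR adjusted p up to 0.0837). It was at 0.26 in siStag3 (edgeR adjusted p 0.0817). With the GC correction Lgr4 passed as higher in both groups, and Fzd7 as higher in siLuc. The median of the receptors was 0.07 in siLuc and -0.00992 in siStag3. Of the 12 genes of Dishevelled, the destruction complex and β-catenin none passed in a comparison of groups, with medians of -0.08 and -0.09. The smallest p among them was that of Dvl2, a Dishevelled protein (siLuc -0.25, SE 0.0691, edgeR adjusted p 0.055). With the GC correction Btrc of this list passed as lower in siLuc. None of the 12 nuclear partners passed in a comparison of groups with or without that correction, with medians of -0.11 and -0.10 without it. Bcl9l, a coactivator of β-catenin, had their smallest p (siLuc -0.36, SE 0.105, edgeR adjusted p 0.0638).

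Among 13 tested inhibitors that act outside the cell or at its membrane, Apcdd1 fell and Sfrp1 rose. Apcdd1, a membrane inhibitor that is itself a Wnt target, was at 14.9, 13.8 and 10.5 CPM in untreated, 7.83, 8.30 and 5.95 in siLuc and 8.37, 7.62 and 8.05 in siStag3 libraries. All untreated libraries lay above all transfected ones, as in 2.59% of all genes tested. Apcdd1 changed by -0.83 in siLuc (SE 0.110, edgeR adjusted p 0.00141) and by -0.69 in siStag3 (SE 0.109, adjusted p 0.00401). The call in siStag3 was lost without the siStag3 library of Set 1, experiment 1 (edgeR adjusted p 0.0521). Sfrp1, a secreted Frizzled-like inhibitor, was at 124 ± 4.76 CPM in untreated, 132 ± 1.42 in siLuc and 151 ± 1.27 in siStag3 libraries (SD, n = 3). Its rise in siStag3 against untreated was 0.29 (SE 0.0522, edgeR adjusted p 0.0105), and against siLuc it was at 0.19 (edgeR adjusted p 0.394). The groups did not overlap in either comparison, where 659 and 453 of 14246 genes were higher in this way. Without the siStag3 library of Set 1, experiment 1, Sfrp1 did not pass (edgeR adjusted p 0.0941). With the GC correction Dkk3 of this list also passed as higher in siStag3 against untreated cells.

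Of 12 other Wnt targets tested, none passed in siLuc and 1 in siStag3. Cdx2, a homeobox gene related to Cdx1, was at 0.981, 1.21 and 2.01 CPM in untreated, 0.827, 0.910 and 0.976 in siLuc and 0.421, 0.756 and 0.759 in siStag3 libraries. It fell by 1.11 in siStag3 against untreated (SE 0.258, edgeR adjusted p 0.0379), on 15 to 93 counts per library. Cdx2 lost its call in 4 of 6 fits without 1 library (adjusted p up to 0.266). Jun, another of the 12, passed as higher in siLuc with the GC correction. The median of these 12 was -0.13 in siLuc and -0.02 in siStag3, beside -0.45 and -0.61 for the 9 genes, a difference that was not tested.

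**Figure D4:**
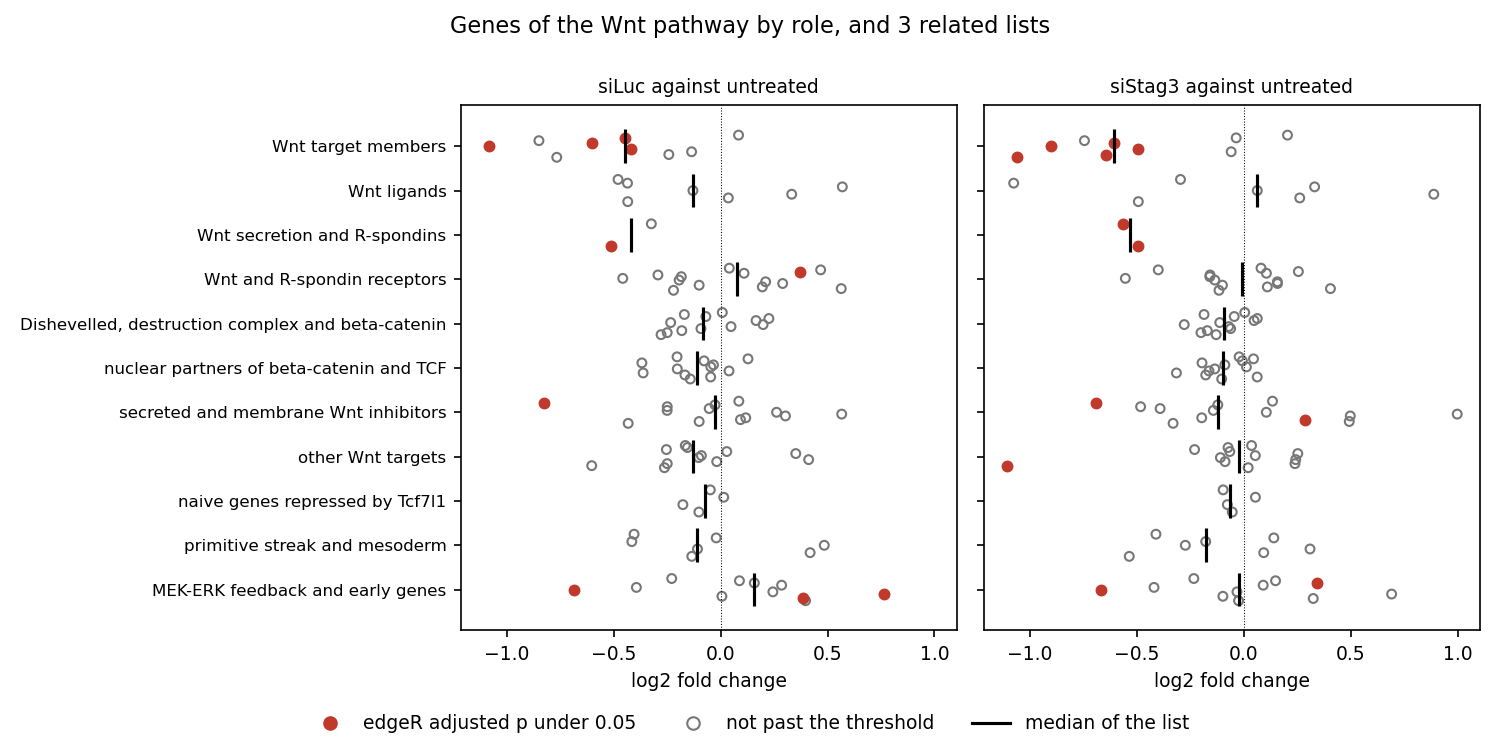
Log2 fold change (x axis) of each tested gene of the 9 Wnt targets, of 7 other Wnt lists and of 3 related lists (rows) against untreated cells. Filled points passed the threshold, open points did not, and lines are list medians. The line of the 9 targets lies at -0.45 in siLuc and -0.61 in siStag3, while those of the destruction complex lie at -0.08 and -0.09.

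Related lists cover naive genes, streak genes and MEK-ERK genes. None of the 4 naive genes known to be repressed by Tcf7l1 (Esrrb, Klf2, Nanog and Tfcp2l1) passed, with medians of -0.08 in siLuc and -0.07 in siStag3. Klf2 had the smallest p (siLuc -0.18, edgeR adjusted p 0.109), and was at 0.0228 with the GC correction. Of 7 tested genes of the primitive streak and mesoderm none passed, but with the GC correction Eomes passed as higher in siLuc. Snai1, a repressor active in gastrulation, had the smallest p (siStag3 -0.41, SE 0.136, edgeR adjusted p 0.137), and Mesp1 and Msgn1 are not listed in the table. Of 11 MEK-ERK genes, 3 passed in siLuc and 2 in siStag3, beside 4.2% and 2.53% of all genes. The ERK feedback genes Spry4 (0.77, SE 0.190, edgeR adjusted p 0.0402) and Dusp6 (0.39, SE 0.0993, adjusted p 0.0465) rose in siLuc, and Egr1 fell (-0.69, SE 0.0903, adjusted p 0.00162). Spry4 and Dusp6 lost their calls in all 6 fits without 1 library (edgeR adjusted p up to 0.137 and 0.206). In siStag3, Etv4, an ETS factor, rose (0.34, SE 0.0666, edgeR adjusted p 0.0145) and Egr1 fell (-0.67, SE 0.0903, adjusted p 0.00182). Etv4 lost its call in 3 of 6 such fits (edgeR adjusted p up to 0.118). Egr1 lost its call with the GC correction (edgeR adjusted p 0.0718 and 0.0687). In that fit 3 of the 11 passed as higher in siLuc (Dusp6, Spry4 and Etv4) and none as lower. In siStag3 4 passed as higher (Dusp6, Spry4, Etv4 and Etv5) and none as lower.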

How the data were processed

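RNA of 9 libraries was measured. The authors deposited raw counts per gene, whole numbers with no row under a sum of 9 counts over the libraries. Salmon, FastQC and DESeq2 and the build GRCm39 are named per the submitters' processing notes, without roles; the annotation and strand setting are not given in the sources used here. Rows without a symbol hold 0.0156% of counts. Columns name the group, set and experiment, not the replicate numbers of the titles. The series design calls the replicates biological, with nothing on cultures.

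Counts were tested with edgeR 4.0.16 in R 4.3.3 (TMM, filterByExpr, robust glmQLFit, glmQLFTest) in 1 fit with group means and the set. P-values are two-sided, adjusted by Benjamini-Hochberg over 14246 genes, with a threshold of 0.05. The SE is the absolute log2 fold change divided by the square root of F. Within-set values are differences of log2 CPM (prior count 2). GC content and lengths come from GENCODE M21 transcripts (GRCm38), which hold 16604 of 16636 IDs; the GC correction removes the median deviation of 20 GC bins from each library. Promoter sequences are from RefSeq (GRCm38.p6). The exact permutation test for Stag3 gave p = 0.1 (two-sided, siStag3 against siLuc), the smallest that 3 against 3 libraries allow; with edgeR its log2 fold change was -0.71 (adjusted p 0.00205). The fit was checked on simulated data.

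The genes, lists and the set term were chosen with earlier results of these data known. Besides the 9 genes, the text names per list up to 3 genes past the threshold per direction and comparison. Where none passed, the gene with the smallest p is named. Others are named for passing only with the GC correction. LTO1 is named for its overlap with Ccnd1, and Dppa3, Pax6 and the set difference of Egr1 were named after their values were seen. Lef1, Tcf7, Axin2 and Notum also have opposite-strand transcripts that are not listed in the table, so reads of both strands may be mixed. Alternatives were DESeq2 1.42.0 (Wald test), its size factors, total count scaling, no set, no filter, a mean of 50 counts, the 6 libraries compared, the GC correction, Set 1 alone and leaving out each library. A block by set and experiment was added after the data were seen.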

Additional observations from a re-analysis of the deposited data

How the results depend on the processing

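No column shows a replicate number from the titles, so a replicate block by set and experiment was fitted in place of the set, chosen after seeing the data (4 blocks, 3 residual degrees of freedom; the Set 3 siLuc library is alone in its block). Differences between experiments 1 and 3 of Set 1 had correlations of -0.0254, -0.0439 and -0.0371 between groups, so these numbers are not shown to pair the libraries. With the block, 2, 86 and 352 genes passed in siStag3 against siLuc, siLuc against untreated and siStag3 against untreated. In siLuc 2 of the 9 genes passed as lower (Cdx1 and Sp5), and in siStag3 the 5 were T, Lef1, Axin2, Cdx1 and Sp5. The choice of the 9 had these contrasts in view, so nothing is read from their calls. Porcn, Lgr4, Spry4, Dusp6 and Pax6 lost their calls in siLuc (edgeR adjusted p 0.0988 to 0.279). No other gene named for its values in the fit with the set changed its call. The calls rest on the set term: without it, 0 of the 9 genes passed in siLuc and 0 in siStag3 against untreated cells, and 0, 1 and 2 of all genes passed in siStag3 against siLuc, siLuc against untreated and siStag3 against untreated, beside 4, 598 and 361 with it; the 0 had 307 genes at an unadjusted p under 0.05. Stag3 kept -0.71 but lost its call (edgeR adjusted p 0.605), and ranged from -0.76 to -0.67 when 1 library was left out, with the call lost without the siStag3 library of Set 1, experiment 1 (edgeR adjusted p 0.0582). For siStag3 against siLuc the count of all genes was 1 with only the 6 libraries compared, 22 with DESeq2 and 51 with the GC correction; Notum was the 1 member called higher in the last 2. For siLuc against untreated it was 1801 with only the 6 libraries compared, 1337 with DESeq2, 1016 with the GC correction and 298 in Set 1 alone, and for siStag3 against untreated it was 932 with the GC correction and 949 in Set 1 alone. In siStag3 against untreated, Ccnd1 was the 1 member called higher with DESeq2 size factors, a mean of 50 counts, DESeq2, the GC correction and Set 1 alone. With the GC correction 2 members were lower in Set 3 (Cdx1 and Ccnd1), Sp5 was at -0.0122 in that comparison and Klf2 at 0.0228 in siLuc against untreated. The cause of these changes was not tested.

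Leaving out 1 library gave 0 to 4 genes for siStag3 against siLuc, 111 to 387 for siLuc against untreated, 78 to 1591 for siStag3 against untreated and 4162 to 6355 between the sets. The members called lower were 2 to 5 in siLuc and 4 to 5 in siStag3 against untreated, those called higher 0 to 1 in siStag3 against untreated and 3 to 5 in Set 3. In siLuc against untreated, only Cdx1 and Sp5 passed without the siLuc library of Set 1, experiment 1, and likewise without that of Set 3, experiment 1. In siStag3 against untreated, T lost its call in 5 of 6 fits, all but the one without the Set 3 siStag3 library. Lef1, Axin2, Cdx1 and Sp5 kept theirs in all 6. These contrasts were in view when the genes were chosen, so nothing is read from these calls. No log2 fold change of a member past the threshold in a comparison of groups changed sign under any alternative. At 13 to 46 counts per library, Nkd1 is limited by depth.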

Other observations

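Genes whose profile over the 9 libraries was most like that of T or Lef1 were ranked among 11228 genes by Pearson's r of log2 CPM after the mean of each set was subtracted, as a description. For T the nearest were Abcb1a (r = 0.954), Ccn2 (0.944), Dcaf12 (0.944), Hinfp (0.941) and Rccd1 (0.934). Ccn2, a secreted matrix-associated factor, was at a mean of 30.5 CPM in untreated, 24.6 in siLuc and 23.8 in siStag3 libraries. For Lef1 the nearest were H2-Eb1 (r = 0.987), Ankrd13a (0.986), Arhgap9 (0.977), Pitrm1 (0.974) and Mobp (0.974). As in Lef1, their means were highest in untreated cells and lowest in siStag3, and Ankrd13a was at 126, 114 and 101 CPM in untreated, siLuc and siStag3 cells. None of the other 8 Wnt targets was among the 5 nearest of either gene. The most like T of them was Axin2 (r = 0.876), as it was for Lef1 (0.842), and Ccnd1 was the least like both (-0.704 and -0.934). The libraries share groups, so these values carry no test.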
